A study of Mus musculus with 9 samples.

Results

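Trp53, its close regulators and its target Cdkn1a (p21) were followed through 3 mouse cell lines that can all give rise to many cell types. The 10 genes were taken by name: Trp53, its relatives Trp63 and Trp73, the genes that set the level or activity of its protein (Mdm2, Mdm4, Usp7, Ppm1d and Atm), Wrap53, which lies head to head with Trp53, and Cdkn1a. Each of the 10 was measured by 1 probe set, among 19940 named genes and 28853 probe sets in all. P19 NTES7 is 1 stem cell line grown from a blastocyst that was cloned by moving P19 nuclei into B6D2F1 oocytes. The sample labels call it only pluripotent stem cells derived from P19, and the study's text gives the line's name. P19 is an embryonal carcinoma line, the nuclear donor of P19 NTES7, and R1 is an embryonic stem (ES) cell line from normal embryos that served as the standard. All lines were grown in one kind of medium with 15% serum and 1000 units/ml of leukemia inhibitory factor. The methods mention a layer of mouse embryonic fibroblasts for P19 NTES7 and the other stem cell lines and none for P19, and feeder cells are said to have been removed before RNA was taken. Each line gave 3 arrays from 100 ng of total RNA each, and the values are intensities after Robust Multichip Average (RMA) normalization. The labels call the arrays biological replicates, but nothing says that they came from separate cultures, so the p-values cover only the spread from array to array, which may be technical.

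The p53 protein is a transcription factor that is kept scarce in resting cells and builds up after DNA damage, when it switches on genes that stop the cell cycle, repair DNA or kill the cell. Mdm2 is the ubiquitin ligase that marks p53 for destruction and is itself switched on by p53, which closes a feedback loop, while Mdm4 is a relative of Mdm2 that blocks the activity of p53. Cdkn1a codes for p21, an inhibitor of cyclin-dependent kinases and the best known gene switched on by p53. Mouse ES cells are known to hold p53 RNA and protein at a high level while they divide fast. Messenger RNA was measured here, so the amount and activity of the proteins were not.

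The promoters of Cdkn1a and of the Trp53 and Wrap53 pair are shown because the p53 binding motif and the shared start region stand in them. The sequences were taken from the RefSeq promoter windows of the GRCm38.p6 build, which cover 250 bases before and 50 bases after each start, and 9 of the 10 genes have at least 1 window there. The Cdkn1a stretch is chr17:29090729-29090978 on the plus strand, ending at the last base before the upstream one of its 2 starts. The Trp53 stretch is chr11:69580251-69580358 on the plus strand. It holds the 108 bases that lie between the start of Wrap53, which is read leftward, and that of Trp53, which is read rightward. Capitals mark each exact match to the p53 consensus decamer, the 10-base unit of the p53 motif.
Cdkn1a: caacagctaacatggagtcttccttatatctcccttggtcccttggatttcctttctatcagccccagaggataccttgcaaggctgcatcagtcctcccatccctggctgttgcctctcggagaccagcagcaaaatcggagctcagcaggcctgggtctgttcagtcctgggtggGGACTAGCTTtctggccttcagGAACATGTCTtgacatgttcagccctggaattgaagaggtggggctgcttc
Trp53 and Wrap53: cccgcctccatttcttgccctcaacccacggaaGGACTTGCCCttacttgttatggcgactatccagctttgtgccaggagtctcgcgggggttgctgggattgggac

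The Cdkn1a stretch held 2 exact decamers with 12 bases between them, and the second was followed directly by 10 bases that match with 1 mismatch. The pair of exact decamers ended 42 bases before the upstream start. The window of the other Cdkn1a start, farther downstream, held 0 exact decamers, and its best pair had 5 mismatches. The motif was searched by its consensus, which reads the same on both strands, as single decamers and as pairs with up to 13 bases between them. A pair with 0 mismatches stood in 24 of 32851 promoter windows of the table, or 0.0731%, and a pair with at most 1 mismatch in 1.09%. Among the 13 windows of the genes followed here, only the upstream Cdkn1a window held such a pair. At least 1 exact decamer stood in 5 of the 13 windows, those of Trp53, Mdm2, Cdkn1a, Ppm1d and Wrap53, against 8.36% of all windows, and the Trp53 and Wrap53 windows share their match because they overlap. A match of letters is a description of the sequence and does not show binding.

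Expression was compared between the lines on the log2 scale with limma, with all 9 arrays in 1 fit. A gene was called where the Benjamini-Hochberg adjusted p over all probe sets was under 0.01 and the fold was over 2. Against P19, 2.91% of all probe sets were called in P19 NTES7, and 2 of the 10 genes were: Cdkn1a was higher and Trp73 lower. An adjusted p under 0.01, whatever the fold, was reached by 4 of the 10, against 11.3% of all probe sets, and arrays did not overlap in 4 of the 10, against 34.4%. Against R1, 4.52% of all probe sets were called in P19 NTES7, with 1.99% on the higher and 2.53% on the lower side, and 4 of the 10 genes were called, all lower: Trp53, Mdm2, Mdm4 and Cdkn1a. The p limit alone was passed by 7 of the 10, against 17.1%, and arrays did not overlap in 7, against 36.6%. In P19 against R1, 7.4% of all probe sets were called, with 3.7% on the higher and 3.7% on the lower side, and the genes called were again Trp53, Mdm2, Mdm4 and Cdkn1a, all lower. The p limit alone was passed by 6 of the 10, against 23.0%, and arrays did not overlap in 8, against 45.3%. The last 2 comparisons share the R1 arrays and each line stands in 2 comparisons, so the counts are not independent of each other. Over the 10 genes the median log2 difference was 0.01 for P19 NTES7 minus P19, -0.45 for P19 NTES7 minus R1 and -0.40 for P19 minus R1, where the medians over all named genes were 0.02, 0.01 and -0.02. Trp53, Mdm2, Mdm4 and Cdkn1a also stand in the p53 pathway lists of the study's supplement, which were drawn from differences on these arrays, so their calls are no independent evidence. The study also measured Trp53 RNA by quantitative PCR, with mouse embryonic fibroblasts among the cells, and those values were not used here.

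**Figure D1:**
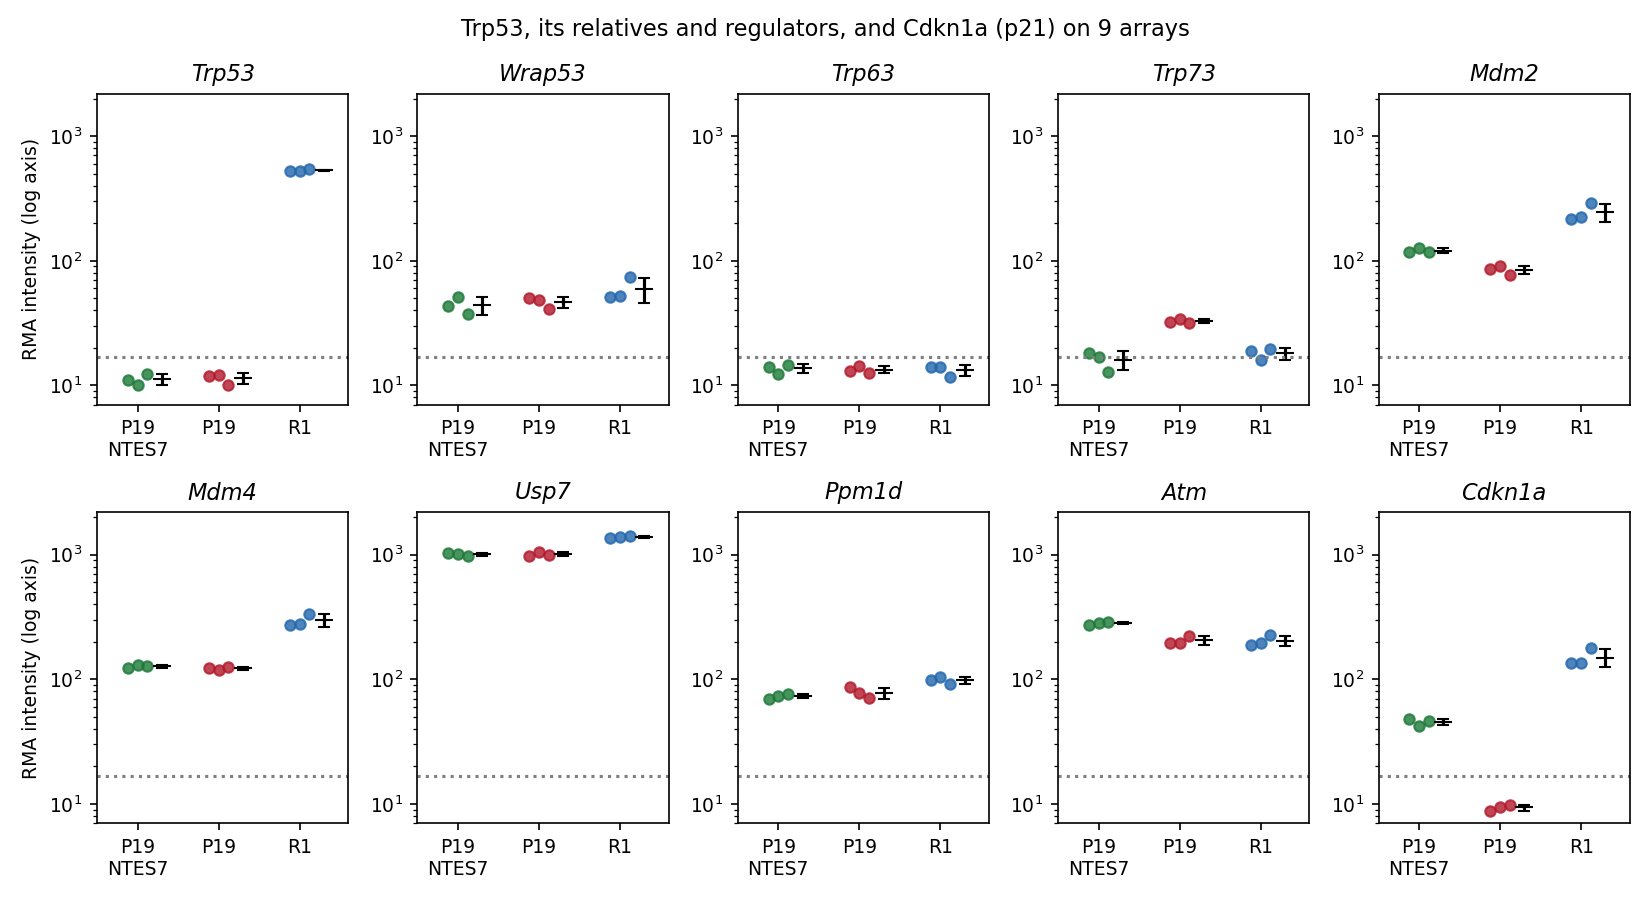
RMA intensity (log axis) of the 10 genes on each array, with P19 NTES7 at the left of each panel, then P19, then R1. Points are arrays, the black bar beside each group is the mean with its SD (n = 3), and the dotted line is the median of all values, 16.9. Trp53 lies below that line on all 6 arrays of P19 NTES7 and P19, and Cdkn1a lies below it only in P19.

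Trp53 RNA was near the bottom of the array's range in both P19 NTES7 and P19. Its intensities were 11.1, 10.1 and 12.4 in P19 NTES7, 11.9, 12.2 and 10.1 in P19, and 527, 529 and 540 in R1. The 6 arrays of P19 NTES7 and P19 overlapped each other, and every one of them was below the median of all values, while the 3 R1 arrays lay within a narrow band far above. P19 NTES7 and P19 did not differ beyond the spread between arrays (log2 difference -0.03, 95% interval -0.26 to 0.20, limma adjusted p = 0.898). Against R1 the log2 difference was -5.58 for P19 NTES7 (SE 0.11, adjusted p = 4.62e-12) and -5.55 for P19 (SE 0.11, adjusted p = 1.26e-12). Because the low lines sit below the array median, these folds are set by the array's floor and are not exact.

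Wrap53, a telomerase-associated protein gene whose RNA starts beside that of Trp53 and runs the other way, was not called in any comparison. Its intensities were 43.4, 51.2 and 37.3 in P19 NTES7, 50.3, 48.4 and 41.3 in P19, and 50.7, 51.8 and 74.5 in R1. The P19 NTES7 arrays overlapped those of both other lines, the P19 arrays lay just below those of R1, and the third R1 array stood above the rest. The log2 difference was -0.41 for P19 NTES7 minus R1 (adjusted p = 0.0730, 95% interval -0.75 to -0.07) and -0.32 for P19 minus R1 (adjusted p = 0.144, 95% interval -0.66 to 0.02), neither of which passed the test. P19 NTES7 minus P19 was -0.09 (adjusted p = 0.751, 95% interval -0.43 to 0.25). The starts of the 2 genes are 109 bases apart, at the ends of the Trp53 and Wrap53 stretch printed above.

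Among the 5 genes on either side of Trp53 in the RefSeq order, 7 had a probe set of their own, and only Atp1b2 was called in any comparison. The shares of all probe sets called were 2.91% in P19 NTES7 minus P19, 4.52% in P19 NTES7 minus R1 and 7.4% in P19 minus R1. Atp1b2, a subunit gene of the sodium-potassium pump, is the next gene on the other side of Trp53 from Wrap53. Its intensities were 135, 95.1 and 107 in P19 NTES7, 121, 148 and 141 in P19, and 26.1, 31.8 and 41.7 in R1. Both P19 NTES7 and P19 were above R1 here, opposite to Trp53. The log2 difference was 1.77 for P19 NTES7 minus R1 (SE 0.17, adjusted p = 3.89e-06) and 2.06 for P19 minus R1 (SE 0.17, adjusted p = 4.44e-07), with no overlap of arrays. P19 NTES7 and P19 did not differ by the test in Atp1b2 (-0.29, adjusted p = 0.271). Fxr2, an RNA-binding protein gene farther off, averaged 369 ± 55.0 in P19 NTES7, 344 ± 9.52 in P19 and 318 ± 10.8 in R1 (SD, n = 3 each), and was not called. Dnah2, Efnb3, Shbg and Sat2 had mean intensities between 9.79 and 20.1 in every line, near or below the median of all values, where the arrays can show little.

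**Figure D2:**
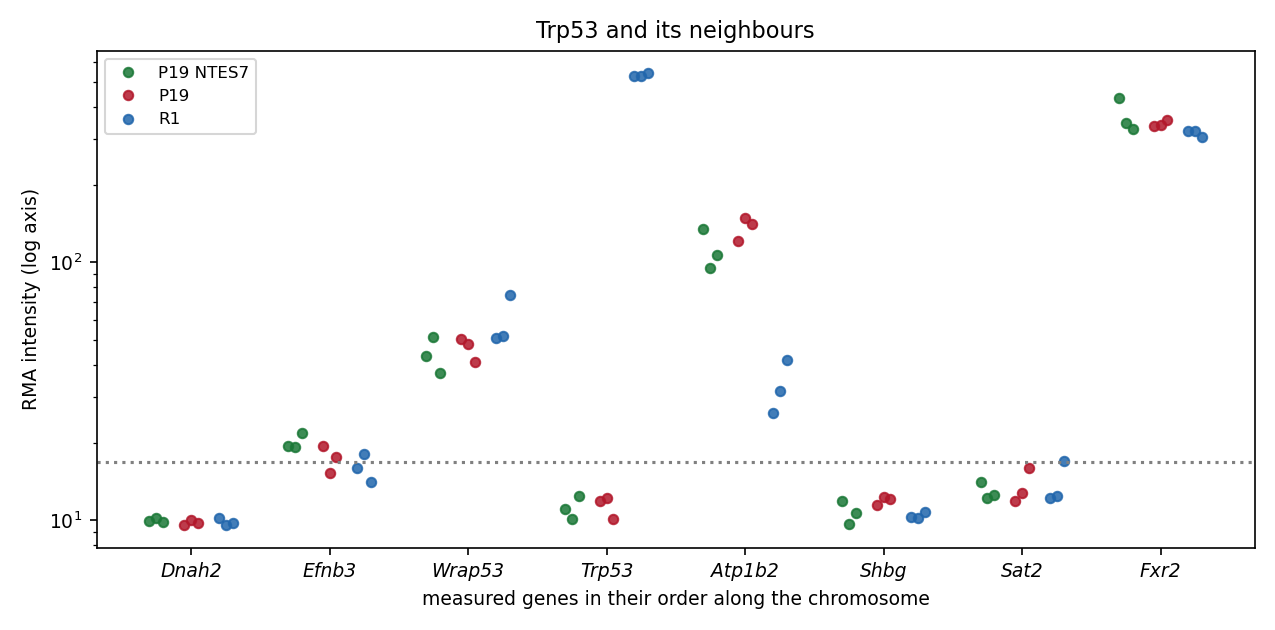
RMA intensity (log axis) of Trp53 and the measured genes around it, set in their order along the chromosome and not to distance. Points are the 3 arrays of each line, P19 NTES7 left, P19 middle and R1 right in each set, and the dotted line is the median of all values. The R1 arrays stand high at Trp53 and low at Atp1b2, and the lines lie close together at Wrap53 and Fxr2.

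The relatives of Trp53 showed no such pattern. Trp63 codes for p63, a factor of epithelial and germ cells, and its mean intensity was 13.7 ± 1.18 in P19 NTES7, 13.4 ± 0.859 in P19 and 13.2 ± 1.35 in R1 (SD, n = 3 each), below the median of all values in each line. Its adjusted p was 0.895 for P19 NTES7 minus P19, 0.801 for P19 NTES7 minus R1 and 0.904 for P19 minus R1. Trp73 codes for p73, which acts in neurons and ciliated cells, and P19 stood out there. Its intensities were 18.3, 16.8 and 12.9 in P19 NTES7, 32.5, 33.8 and 31.4 in P19, and 18.7, 15.9 and 19.7 in R1. The P19 arrays were above all others and those of P19 NTES7 and R1 overlapped, at levels close to the median of all values. Trp73 was lower in P19 NTES7 than in P19 (log2 difference -1.04, SE 0.13, adjusted p = 8.28e-05), a call that was lost without the third P19 NTES7 array (-0.89) and with 16 added to every intensity before log2 (-0.61). P19 minus R1 was 0.85 (SE 0.13, adjusted p = 1.76e-04), short of the fold limit. P19 NTES7 minus R1 was -0.19 (adjusted p = 0.361, 95% interval -0.47 to 0.10).

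The 2 negative regulators that bind p53 were both lower in the P19-derived line and in P19 than in R1, and they differed in how P19 NTES7 stood to P19. For Mdm2, the ligase, intensities were 117, 127 and 118 in P19 NTES7, 86.4, 90.2 and 77.0 in P19, and 216, 225 and 291 in R1. The 3 lines did not overlap, with P19 NTES7 in the middle. Mdm2 was lower in P19 than in R1 (log2 difference -1.52, SE 0.12, adjusted p = 3.57e-07). P19 NTES7 minus R1 was -1.002 (SE 0.12, adjusted p = 3.22e-05), which only just passed the fold limit and missed it in 5 of 17 alternatives, such as the fit without the third R1 array (-0.87), the first P19 NTES7 array (-0.98) or the third P19 NTES7 array (-0.99). P19 NTES7 minus P19 was 0.52 (SE 0.12, adjusted p = 0.00796), past the p limit and short of the fold limit.

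For Mdm4, the partner of Mdm2, intensities were 123, 130 and 128 in P19 NTES7, 122, 119 and 125 in P19, and 273, 279 and 337 in R1. The arrays of P19 NTES7 and P19 overlapped, and both lines were below every R1 array. Mdm4 was lower than in R1 by similar amounts in both, with a log2 difference of -1.21 for P19 NTES7 (SE 0.10, adjusted p = 1.20e-06) and -1.27 for P19 (SE 0.10, adjusted p = 3.72e-07). P19 NTES7 minus P19 was 0.06 (adjusted p = 0.755, 95% interval -0.16 to 0.28).

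Usp7, Ppm1d and Atm differed between lines by less than the fold limit. Usp7 codes for a deubiquitinase that stabilises Mdm2 and p53, and its intensities were 1035, 1004 and 977 in P19 NTES7, 980, 1050 and 990 in P19, and 1368, 1397 and 1410 in R1. Both P19 NTES7 and P19 were below R1 on every array, each by -0.47 on the log2 scale (SE 0.09, adjusted p = 0.00118 for P19 NTES7 and 8.55e-04 for P19), and P19 NTES7 minus P19 was -0.00 (adjusted p = 0.994, 95% interval -0.19 to 0.19). Ppm1d, the gene of the phosphatase Wip1 that turns p53 signaling off, stood at 70.0, 74.0 and 76.1 in P19 NTES7, 86.2, 77.1 and 70.5 in P19, and 98.96, 104 and 91.97 in R1. The arrays of P19 NTES7 and P19 overlapped, and all were below those of R1, with a log2 difference of -0.42 for P19 NTES7 minus R1 (SE 0.10, adjusted p = 0.00737) and -0.34 for P19 minus R1 (SE 0.10, adjusted p = 0.0209). P19 NTES7 minus P19 was -0.08 (adjusted p = 0.645, 95% interval -0.30 to 0.14).

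Atm was the 1 gene of the 10 in which every P19 NTES7 array was above every array of both other lines. It codes for the kinase that senses DNA breaks and phosphorylates p53. Its intensities were 275, 284 and 289 in P19 NTES7, 194, 197 and 224 in P19, and 187, 197 and 225 in R1. The P19 and R1 arrays overlapped and all P19 NTES7 arrays were above them. The log2 difference was 0.47 for P19 NTES7 minus P19 (SE 0.10, adjusted p = 0.00546) and 0.48 for P19 NTES7 minus R1 (SE 0.10, adjusted p = 0.00306), both past the p limit and under the fold limit. P19 minus R1 was 0.02 (adjusted p = 0.930, 95% interval -0.20 to 0.24).

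Cdkn1a RNA differed among all 3 lines, with P19 NTES7 between P19 and R1. Trp53 was at the floor in both P19 NTES7 and P19, and a link between the levels of these genes was not tested. The Cdkn1a intensities were 47.7, 42.5 and 46.6 in P19 NTES7, 8.78, 9.46 and 9.82 in P19, and 136, 135 and 177 in R1. No array of one line overlapped another line, and the P19 arrays were below the median of all values. Cdkn1a was higher in P19 NTES7 than in P19 (log2 difference 2.28, SE 0.12, adjusted p = 2.55e-08), which is a fold over the floor. It was lower than in R1 in P19 NTES7 (-1.70, SE 0.12, adjusted p = 1.76e-07) and in P19 (-3.99, SE 0.12, adjusted p = 4.25e-11). These calls, like those of Trp53 and Mdm4, held under all 17 alternatives, 1 of which is a looser limit that cannot lose a call. With 16 added to every intensity before log2, the Cdkn1a difference of P19 NTES7 minus P19 was smaller, at 1.28.

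For the 4 genes called against R1 in both lines, the place of P19 NTES7 was read on the log2 scale that runs from the P19 mean, set at 0, to the R1 mean, set at 1. P19 NTES7 stood at -0.00502 ± 0.0271 for Trp53, 0.0464 ± 0.0314 for Mdm4, 0.341 ± 0.0412 for Mdm2 and 0.573 ± 0.0223 for Cdkn1a (SD, n = 3 arrays). The P19 NTES7 arrays lay from -0.031 to 0.023 for Trp53, from 0.012 to 0.073 for Mdm4, from 0.314 to 0.388 for Mdm2 and from 0.548 to 0.590 for Cdkn1a, so those of Trp53 and Mdm4 overlapped. Where P19 sits at the floor, as for Trp53 and Cdkn1a, the scale starts there. The differences between the genes were not tested.

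**Figure D3:**
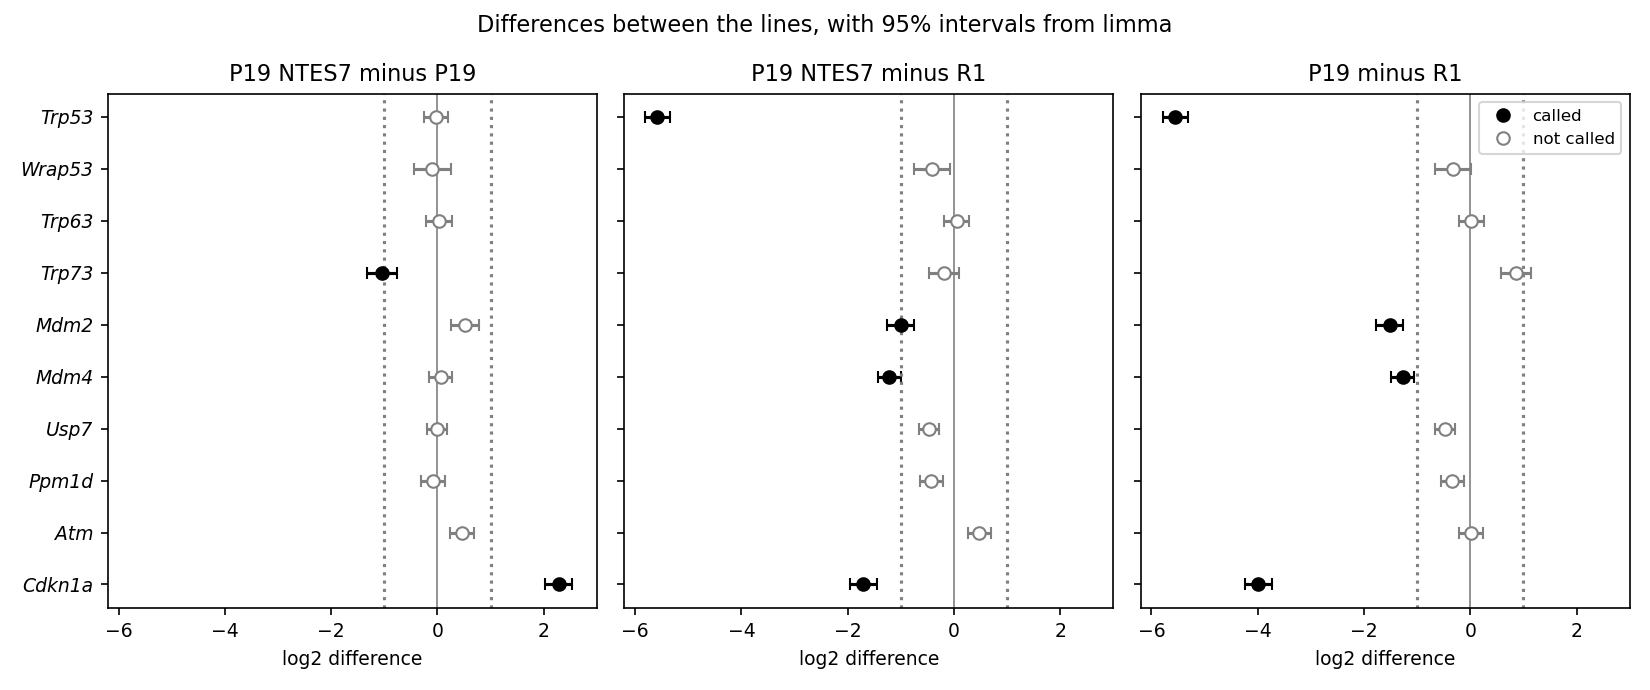
Log2 difference (x axis) of each of the 10 genes in the 3 comparisons, with 95% intervals from limma. Filled points were called, open points were not, and the dotted lines mark the fold limit of 2. Against R1 the points of Trp53, Mdm2, Mdm4 and Cdkn1a are called lower in both P19 NTES7 and P19, and against P19 only Cdkn1a is called higher in P19 NTES7.

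Summed over a list, marker genes of fibroblasts, the usual feeder cells of ES cultures, stood in the same order of lines as Cdkn1a. The summed intensity of 19 measured fibroblast markers was 2688 to 3256 in P19 NTES7, 1228 to 1255 in P19 and 3465 to 4099 in R1. Bright genes such as Fn1 (mean 1065 in P19 NTES7, 447 in P19 and 1414 in R1) make up much of these sums. Some single markers stood in another order. The P19 NTES7 mean was above that of R1 for Pdgfra (49.4 against 48.7), Acta2 (200 against 169) and Tagln (40.8 against 39.5). For Mmp2 it was below that of P19 (52.5 against 70.7). Of the 19, P19 NTES7 was called higher than P19 in 12 and lower than R1 in 3, and P19 was called lower than R1 in 15, with 0 called the other way. Among all probe sets, the shares called in those directions were 1.55%, 2.53% and 3.7%. By the methods, P19 NTES7 and the other stem cell lines were kept on fibroblast layers, which are not mentioned for P19, so culture on feeders and cell line cannot be told apart in comparisons with P19. The mean was below the median of all values for 2 of the 19 in P19 NTES7, 11 in P19 and 1 in R1. Prrx1, one of those markers and a mesenchymal homeobox gene, stood at 40.2, 36.9 and 38.6 in P19 NTES7, 9.10, 8.67 and 8.45 in P19, and 94.5, 93.9 and 111 in R1. Prrx1 was named for its likeness to Cdkn1a over these arrays, so its order of lines was fixed by that choice. Col1a1, the first marker of the list, stood at 365, 246 and 279 in P19 NTES7, 43.8, 41.2 and 62.4 in P19, and 334, 318 and 375 in R1. Its P19 NTES7 and R1 arrays overlapped, and it was not called between those lines. In bulk RNA, fewer cells of a type and less RNA per cell cannot be told apart, and the part of fibroblast RNA in the Cdkn1a levels was not tested. Fibroblasts alone were not on the arrays, so the arrays do not give their own levels of Trp53 and Cdkn1a.

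The 10 measured markers of pluripotent cells were mostly well measured in all lines. Their summed intensity was 5049 to 5718 in P19 NTES7, 5855 to 6180 in P19 and 9217 to 9659 in R1, and 0, 1 and 0 of the 10 means were below the median of all values in those lines. A few bright genes make up most of these sums. By single genes, P19 NTES7 was called higher than P19 in 4 of the 10 (Nanog, Esrrb, Dppa5a and Zfp42) and lower in 1 (Utf1), and lower than R1 in 4, and P19 was called lower than R1 in 4. Among all probe sets, the shares called in those directions were 1.55%, 1.36%, 2.53% and 3.7%. The means of Nanog, Esrrb, Dppa5a and Zfp42, and of Tdgf1, which was not called, stood in the same order of lines as Cdkn1a. Those of the other markers did not. Sums over 8 endoderm markers were 162 to 167 in P19 NTES7, 167 to 180.3 in P19 and 176 to 179.9 in R1. The means of 4, 5 and 4 of the 8 were below the median of all values in those lines. Single endoderm genes went both ways in P19 NTES7 minus P19, such as Gata6 (log2 difference 1.03, called) and Dab2 (-0.73, not called). Sums over 6 trophectoderm markers were 340.1 to 372 in P19 NTES7, 105 to 109.9 in P19 and 198 to 216 in R1. Most of these sums came from Eomes, Krt8 and Krt18, with means of 146, 111 and 59.8 in P19 NTES7. Those 3 alone passed both limits for P19 NTES7 minus P19, all upward, and 0 of the 6 did for P19 NTES7 minus R1. The other 3, Cdx2, Hand1 and Elf5, had means below the median of all values in every line. The part of endoderm or trophectoderm RNA in the results was not tested.

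The third R1 array was above the other R1 arrays in many of the genes described here. Its intensity over the mean of the other 2 was 1.45 for Wrap53, 1.32 for Mdm2, 1.31 for Cdkn1a, 1.22 for Mdm4, 1.17 for Atm, 1.14 for Trp73, 1.02 for Trp53, 1.02 for Usp7, 0.906 for Ppm1d and 0.833 for Trp63, against a median of 0.975 over all probe sets. It was the highest R1 array in 27 of 37 further p53 target genes (73.0%), against 40.4% of all named genes, and this was not particular to targets, since it was also the highest in 12 of 17 DNA damage genes, 13 of 19 cofactors, 7 of 10 genes that restrain Mdm2 and 13 of 19 fibroblast markers. In 2 of 10 markers of pluripotent cells, 1 of 6 other inhibitors of cyclin-dependent kinases and 8 of 15 ligases and deubiquitinases it was the highest. This pattern was chosen after its values were seen and has no test. Without that array the log2 differences from R1 of the 4 called genes kept their sign, and only the Mdm2 call of P19 NTES7 was lost, which left 3 of the 10 genes called in P19 NTES7 minus R1 and 4 in P19 minus R1.

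Among the other known p53 target genes, more were called lower than higher in both P19 NTES7 and P19 when set against R1. Of 37 measured target genes, P19 NTES7 was called higher than R1 in 2 and lower in 17, with 18 not called, where 1.99% of all probe sets were higher and 2.53% lower. P19 was called higher than R1 in 4 and lower in 20, with 13 not called, where 3.7% of all probe sets were higher and 3.7% lower. In P19 NTES7 minus P19, 5 were called above 0 and 2 below, where 1.55% of all probe sets were above and 1.36% below. These 7 calls came to 4 without the first P19 array and to 1 with 16 added to every intensity before log2. Without the third R1 array, 19 were called in P19 NTES7 minus R1 and 24 in P19 minus R1. The median log2 difference over the 37 was 0.18 for P19 NTES7 minus P19, -0.95 for P19 NTES7 minus R1 and -1.14 for P19 minus R1. Many of these genes stand in p53 pathway lists that the study drew from differences on these arrays, so the counts are not independent evidence of their direction.

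Eda2r, a death receptor gene of the tumour necrosis factor family, was low in both P19 NTES7 and P19. Its intensities were 13.7, 14.3 and 13.4 in P19 NTES7, 11.7, 11.4 and 9.74 in P19, and 146, 136 and 166 in R1. Both lines were below the median of all values, with log2 differences from R1 of -3.43 in P19 NTES7 (SE 0.11, adjusted p = 1.44e-10) and -3.77 in P19 (SE 0.11, adjusted p = 3.35e-11). Phlda3, a repressor of Akt, was called lower in the same way, at 19.5 ± 1.39 in P19 NTES7, 15.4 ± 2.42 in P19 and 87.8 ± 9.21 in R1 (SD, n = 3 each). Gtse1, a gene of the dividing cell that p53 also induces, averaged 48.4 ± 9.39 in P19 NTES7, 58.5 ± 6.39 in P19 and 237 ± 11.9 in R1 (SD, n = 3 each). P19 NTES7 was not called against P19 in Eda2r, Phlda3 or Gtse1.

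Plk2, a polo-like kinase gene, stood in the same order of lines as Cdkn1a. It stood at 82.8, 79.7 and 64.4 in P19 NTES7, 22.3, 23.0 and 18.9 in P19, and 285, 300.4 and 497 in R1. The lines did not overlap, and the third R1 array was well above the other 2. The log2 difference was 1.82 for P19 NTES7 minus P19 (SE 0.18, adjusted p = 1.24e-05), -2.22 for P19 NTES7 minus R1 (SE 0.18, adjusted p = 1.11e-06) and -4.03 for P19 minus R1 (SE 0.18, adjusted p = 1.69e-09). Trp53inp1, a stress protein gene that feeds back on p53, was also in the middle in P19 NTES7, at 135 ± 19.02, against 66.1 ± 13.6 in P19 and 385 ± 39.1 in R1 (SD, n = 3 each). Its call against P19 (log2 difference 1.04, adjusted p = 2.24e-04) was lost without the third P19 NTES7 array (0.95), the first P19 array (0.93) or the second P19 array (0.998), after centring each array on its median (0.997), and with 16 added to every intensity (0.89), each short of the fold limit.

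Some targets were called between P19 NTES7 and P19 and not between P19 NTES7 and R1. Pmaip1, the gene of the death protein Noxa, averaged 32.0 ± 1.05 in P19 NTES7, 12.6 ± 1.10 in P19 and 29.3 ± 1.97 in R1 (SD, n = 3 each). It was higher in P19 NTES7 than in P19 (log2 difference 1.35, adjusted p = 7.15e-07), and P19 NTES7 minus R1 was 0.13 (SE 0.10, adjusted p = 0.421). Btg2, an antiproliferative gene, was higher in P19 NTES7 than in P19 too, at 53.6 ± 9.36 against 21.4 ± 5.20 (log2 difference 1.33, adjusted p = 0.00118). It averaged 89.2 ± 35.0 in R1, with every P19 NTES7 array below those of R1 (-0.68, SE 0.23, adjusted p = 0.0470). Steap3, a metal reductase gene, went the other way. It averaged 26.0 ± 5.29 in P19 NTES7, 61.9 ± 1.82 in P19 and 20.8 ± 0.444 in R1 (SD, n = 3 each), lower in P19 NTES7 than in P19 (-1.27, adjusted p = 1.22e-05). With 16 added to every intensity before log2, the differences from P19 were 0.75 for Pmaip1, 0.89 for Btg2 and -0.90 for Steap3, short of the fold limit. Btg2 then missed the p limit as well (limma adjusted p = 0.0153).

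**Figure D4:**
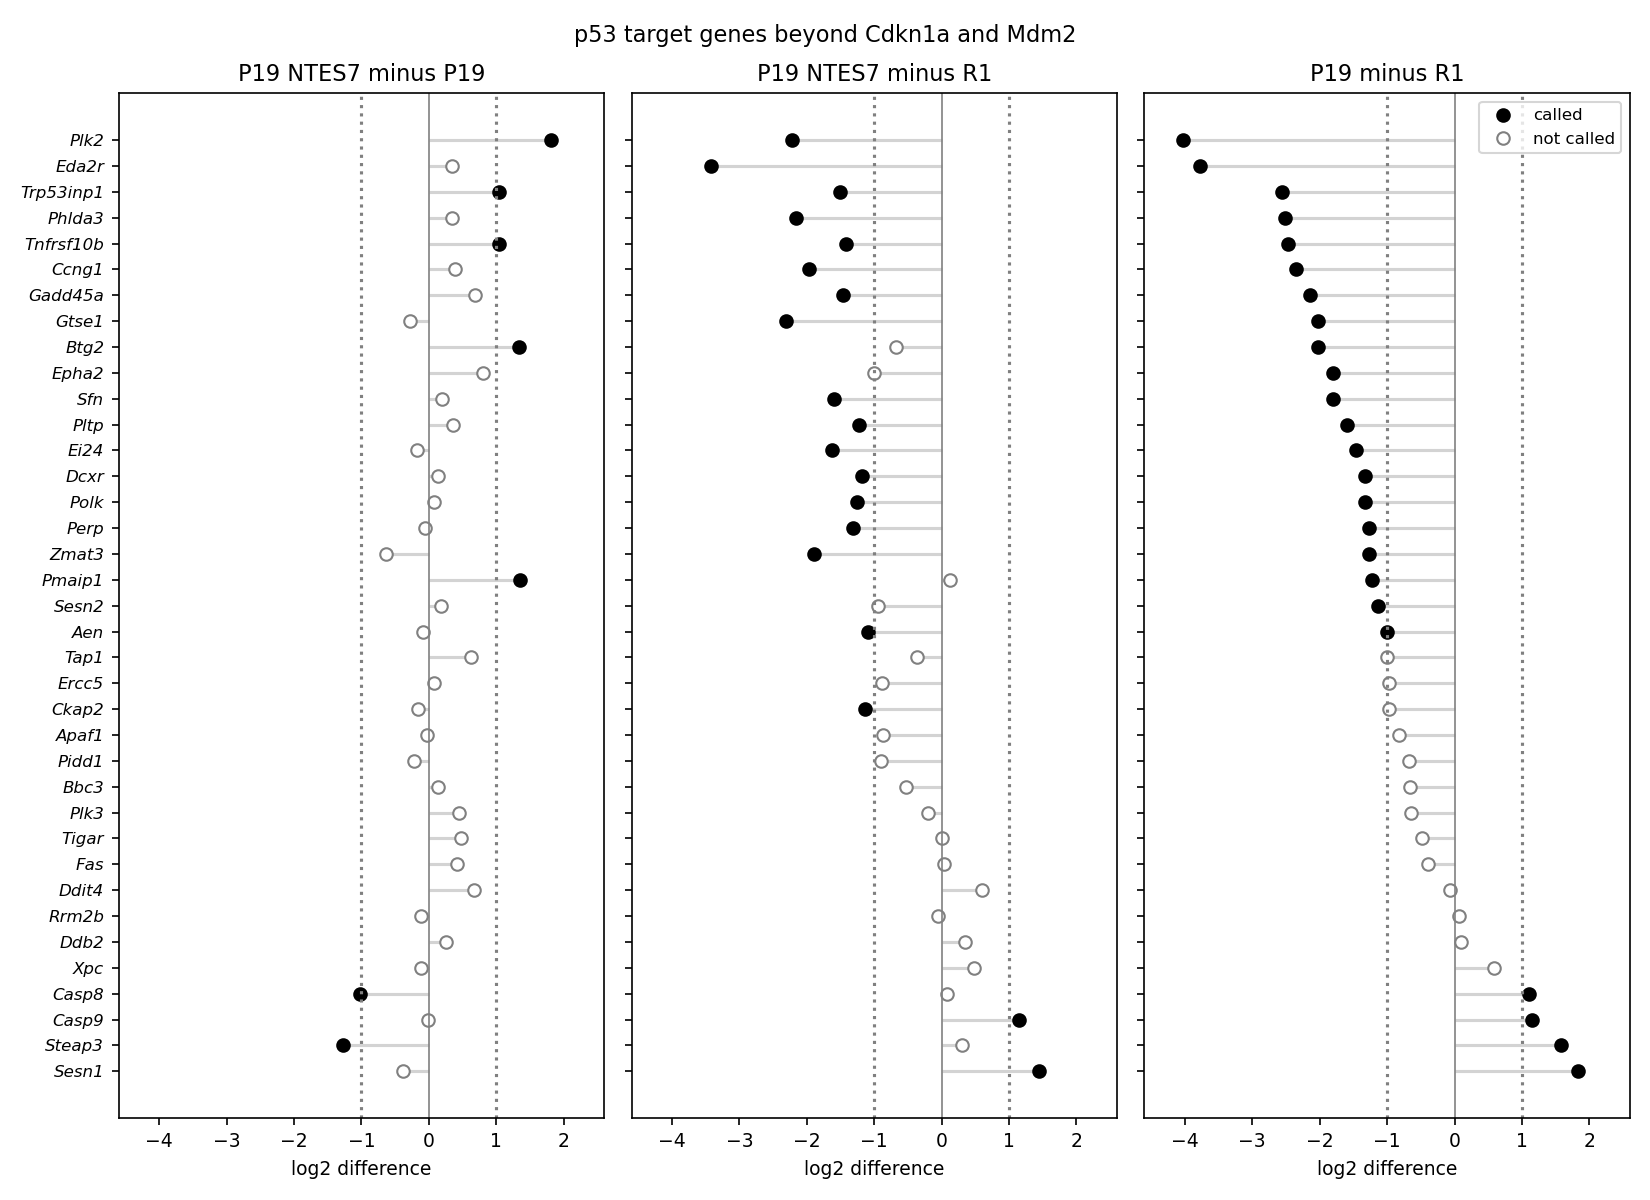
Log2 difference (x axis) of 37 measured p53 target genes beyond Cdkn1a and Mdm2 in the 3 comparisons, ordered by P19 minus R1. Filled points were called, open points were not, and dotted lines mark the fold limit of 2. Called points lie mostly to the left against R1, 17 lower in P19 NTES7 and 20 lower in P19, and are few against P19, 5 higher and 2 lower.

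The genes upstream of p53 or beside it were mostly not called, as were most probe sets. Of all probe sets, 2.91% were called in P19 NTES7 minus P19, 4.52% in P19 NTES7 minus R1 and 7.4% in P19 minus R1. In lists this short, a few calls already reach or pass such shares. Of 15 further ubiquitin ligases and deubiquitinases of p53, none was called in any of the 3 comparisons, while an adjusted p under 0.05 with no fold limit was reached by 4 for P19 NTES7 minus P19 (18.8% of all probe sets), 8 for P19 NTES7 minus R1 (25.3%) and 6 for P19 minus R1 (32.2%). Of 10 genes that restrain Mdm2, such as the ARF gene Cdkn2a and nucleolar and ribosomal proteins, only Pml, the organiser of nuclear bodies, was called, lower in P19 NTES7 than in R1 (-1.24, SE 0.13, adjusted p = 1.12e-05). Of 17 kinases and mediators of DNA damage, Rad50, a subunit of the break-binding MRN complex, was higher in P19 NTES7 than in R1 (1.27, SE 0.11, adjusted p = 1.50e-06). H2ax, the histone that marks breaks, was lower than in R1 at 126, 99.4 and 123 in P19 NTES7 and 166, 156 and 126 in P19, against 414, 409 and 443 in R1. Its log2 difference was -1.87 for P19 NTES7 minus R1 (SE 0.12, adjusted p = 1.33e-07) and -1.51 for P19 minus R1 (SE 0.12, adjusted p = 5.42e-07).

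Of 19 cofactors and modifying enzymes of p53, none was called between P19 NTES7 and P19, against 2.91% of all probe sets. In P19 NTES7 minus R1, 1 was called lower, where 2.53% of all probe sets were. In P19 minus R1, 2 were called higher and 1 lower, where 3.7% of all probe sets were on each side. The acetyltransferase gene Kat2b was lower than in R1 in both lines, at 27.1 ± 0.246 in P19 NTES7 and 35.6 ± 3.54 in P19, against 81.5 ± 12.3 in R1 (SD, n = 3 each). The methyltransferase genes Setd7 and Smyd2 were called higher in P19 than in R1 (log2 difference 1.67, adjusted p = 2.73e-08, and 1.59, adjusted p = 7.55e-06). Of 6 other inhibitors of cyclin-dependent kinases, Cdkn1c (p57) moved with Cdkn1a between P19 NTES7 and P19, at 49.1 ± 4.80 in P19 NTES7, 21.9 ± 1.18 in P19 and 50.9 ± 8.19 in R1 (SD, n = 3 each). It was higher in P19 NTES7 than in P19 (1.17, adjusted p = 1.94e-05) and lower in P19 than in R1 (-1.21, adjusted p = 4.64e-06). Cdkn1b (p27) ran the other way in P19 minus R1 (1.16, adjusted p = 4.17e-05), a call that was lost without the third P19 array (0.998), and Cdkn2b (p15) was lower there (-1.15, adjusted p = 1.94e-05). With 16 added to every intensity, Cdkn1c, Cdkn1b and Cdkn2b all fell short of the fold limit, as did Kat2b in P19 minus R1 (-0.91).

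Genes with the profile most like that of Trp53 were sought by Pearson's r of log2 values over the 9 arrays, among 1870 genes called in any comparison. Slc27a2, Jam2, Hsf2bp, Septin1 and Spry2 came first, with r from 0.997 to 0.998. Spry2, an inhibitor of receptor tyrosine kinase signaling, stood at 104 ± 6.87 in P19 NTES7, 99.7 ± 7.97 in P19 and 538 ± 38.5 in R1 (SD, n = 3 each), well above the median of all values, so in that gene the low lines were measured and not at the floor. Most like Cdkn1a were Prrx1, Dennd2c, Lncenc1, Emp1 and Mmp3, with r from 0.995 to 0.998. Prrx1 is in the fibroblast list given above, and Lncenc1, a noncoding RNA of ES cells, stood at 161 ± 8.59 in P19 NTES7, 21.6 ± 2.59 in P19 and 916 ± 8.98 in R1 (SD, n = 3 each). With 3 lines and 9 arrays, r mostly reflects the 3 line means, and it is given as a description.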

How the data were processed

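The intensities of the 9 arrays were used as deposited. The authors made these intensity values with Robust Multichip Average (RMA) from the mouse Gene 1.0 ST array, on the linear scale, and a stated scaling of the median is not in them, since array medians ran from 16.5 to 17.5. Depth does not apply to arrays, and the number of arrays limits the precision. On the log2 scale, limma 3.58.1 in R 4.3.3 fitted 1 mean per line, with Benjamini-Hochberg adjustment over 28853 probe sets. The fit was first tested on data simulated with normal spread, with changes planted in P19 among the brighter probe sets only. In P19 minus R1 it called 0 of 50 changes of 1.5-fold, which lies under the fold limit. It called 45 of 50 of 2.5-fold and 50 of 50 of 4-fold, and 0 unchanged probe sets. That simulation does not cover genes at the floor. The platform annotation gave 1 symbol to 21789 probe sets, several to 1621 and none to 5443, and the brightest probe set stood for its gene. Trp53 and Cdkn1a were named through probe IDs in the study's supplement, since the annotation gave none or several names there. The genome build behind the array files was not given in the sources used. Of 109 list entries, 104 were measured. Genes named beyond the 10 were up to 4 called genes per list and comparison with the largest change, the neighbours of Trp53, and the 5 most like Trp53 or Cdkn1a. The genes and lists were chosen with earlier results of these data known. Alternatives were scaling, offset, filter, test, block and leaving out each array.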

Additional observations from a re-analysis of the deposited data

How the results depend on the processing

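Values of single genes among the 10 were recomputed under up to 17 alternatives each, 507 values in all. Of these 474 kept their sign and side of the limits, 7 lost a call, 8 gained one and 18 turned sign, and every value that turned belonged to a difference that was not called. All 8 gains came with an adjusted p under 0.05 and no fold limit, a setting that cannot lose a call. Some alternatives leave a log2 difference as it was, such as leaving out an array of the line not compared. The 507 values are therefore not separate checks. With 16 added to each intensity, 1 of the 10 genes was called against P19 (2 otherwise), and 412, 709 and 1088 probe sets were called in P19 NTES7 minus P19, P19 NTES7 minus R1 and P19 minus R1. The p53 targets then had 1 call against P19, and the inhibitors of cyclin-dependent kinases 0 in P19 NTES7 minus P19 and 0 in P19 minus R1. With an adjusted p under 0.05 and no fold limit, 4, 7 and 7 of the 10 genes and 5417, 7304 and 9282 probe sets passed, in the same order. So did 4, 8 and 6 of the ligases, 3, 4 and 3 of the Mdm2 inhibitors, 5, 7 and 7 of the damage genes, 6, 7 and 6 of the cofactors, 17 of the targets against P19, and 3 and 2 of the kinase inhibitors in the comparisons of P19 NTES7 with P19 and with R1. The one-way test of the methods called 760, 1251 and 2002 probe sets as given and 592, 1047 and 1665 after Benjamini-Hochberg adjustment, with 2, 4 and 4 of the 10 genes. Leaving out 1 array gave 1 to 2 of the 10 genes and 4 to 8 targets against P19, 0 to 1 ligases and 1 to 2 cofactors in P19 NTES7 minus R1, and 1 to 2 damage genes in P19 minus R1, and centring gave 1 ligase in P19 NTES7 minus R1. Replicate numbers are shared between the lines, but the deviations of same-numbered arrays did not go together (0 of 9 correlations over 0.1, from -0.223 to 0.0403). With the replicate number as a block, 837, 1302 and 2136 probe sets and 2, 4 and 4 of the 10 genes were called.

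The log2 differences that turned sign are given here, as ranges over leaving out 1 array unless another setting is named. For P19 NTES7 minus P19 they were Trp53 (-0.11 to 0.044), Trp63 (-0.020 to 0.10, centred -0.018, quantile -0.046), Usp7 (-0.023 to 0.029, quantile 0.035), Wrap53 (-0.21 to 0.019), Sat2 (-0.14 to 0.071), Fxr2 (-0.027 to 0.17), Dnah2 (centred -0.013, quantile -0.051), Jam2 (-0.071 to 0.050, quantile 0.020) and Slc27a2 (-0.0068 to 0.098, quantile -0.023). For P19 NTES7 minus R1 they were Trp63 (-0.037 to 0.12), Sat2 (-0.17 to 0.070), Shbg (-0.036 to 0.11) and Cdkn1c (-0.17 to 0.061). For P19 minus R1 they were Trp63 (-0.066 to 0.070), Atm (-0.049 to 0.091, quantile -0.050), Sat2 (-0.16 to 0.12, quantile 0.024) and Dnah2 (-0.025 to 0.020, centred 0.018, quantile 0.071). The cause of these turns was not tested.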
